A study of Homo sapiens with 12 samples.

Results

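The regions described here are 260 stretches of the HepG2 genome where acetylation of histone H3 at lysine 27 (H3K27ac) ran on for 8000 bp or more and extended well past the H3K4me3 inside it. HepG2 is an established human cell line grown from a liver carcinoma. The 260 were chosen from the 66513 H3K27ac peaks on chromosomes 1 to 22 and X in the authors' pooled list. Each was at least 8000 bp wide, shared 1 bp or more with an H3K4me3 peak, and had less than 50% of its bases under H3K4me3 peaks. They made up 0.391% of the H3K27ac peaks but 3.33% of the acetylated bases, 3.07 Mb in all. Width and H3K4me3 cover were the measured values that chose them, so both are given below as description only.

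The study profiled untreated HepG2 cells by chromatin immunoprecipitation and sequencing (ChIP-seq) with antibodies against H3K27ac, H3K4me1 and H3K4me3, in 3 libraries per mark, and 3 further libraries served as control. The control libraries are titled input, whereas their antibody label names an anti-mouse immunoglobulin. The values used were 1 peak list per mark, pooled over replicates going by its name, with hg19 positions (GRCh37) counted from 1. Library depth is unknown and no value per library was analysed, so there is no spread between cultures to test a difference against. All comparisons are therefore descriptions, with 95% Wilson intervals beside shares. Those intervals reflect counting error alone and take the regions as independent of each other, also where they are neighbours.

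H3K27ac is placed by the acetyltransferases CBP and p300 at active promoters and enhancers, where it neutralises a lysine charge and is read by bromodomain proteins. H3K4me3 is deposited mainly around the start sites of active genes, often over unmethylated CpG islands, whereas H3K4me1 marks enhancers and the shoulders of promoters. Both H3K4 states sit on the same lysine, so a single histone tail carries only 1 of them. Long acetylated stretches are known from genes that define a cell type, where promoter and nearby enhancers can run into each other.

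Among the 595 H3K27ac peaks of 8000 bp or more (0.895% of the list), 260 met the rule, 183 had H3K4me3 over 50% or more of their bases, and 152 touched no H3K4me3 peak. The 260 had a median width of 10670.5 bp (interquartile range 9176.5 to 13186) and reached 35031 bp, and 12 of them were 20000 bp or wider. H3K4me3 covered a median of 26.9% of their bases, from 2.76% to 49.95%. Cover was under 10% in 52 regions and between 40% and 50% in 58, so the regions were spread over the whole range the rule allows. Of all 21074 H3K27ac peaks with H3K4me3, 15.6% had less than 50% cover. That share was 6.15% for peaks under 1000 bp, 29.2% from 4000 to 6000 bp and 78.8% (26 of 33) at 16000 bp or wider. The bases under H3K4me3 rose less steeply than width. Their median was 3411 bp in peaks of 4000 to 6000 bp and 6651 bp in peaks of 16000 bp or wider.

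**Figure D1:**
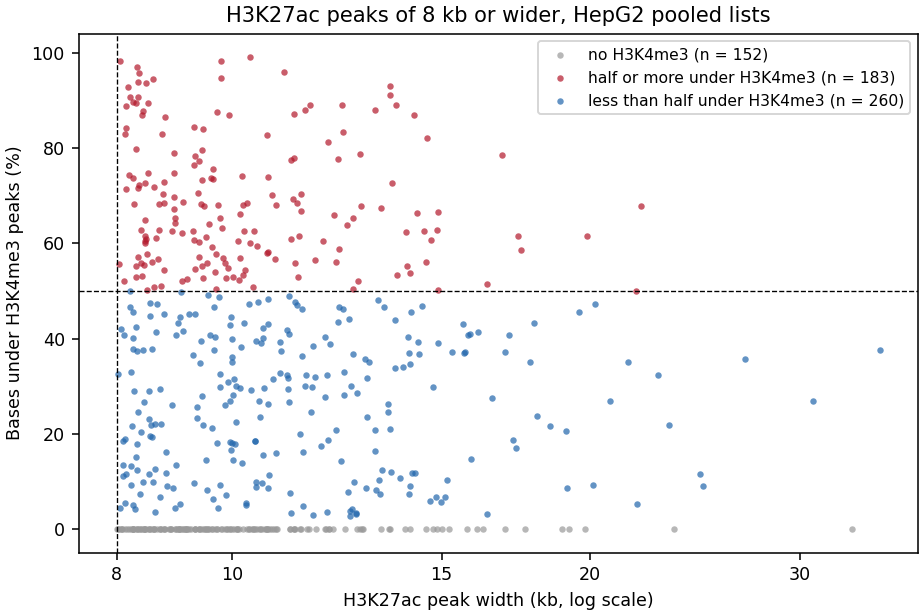
Each point is an H3K27ac peak of 8 kb or wider, with its width in kb on a log axis against the percent of its bases under H3K4me3 peaks. Dashed lines mark the thresholds of 8 kb and 50%; the 260 regions described here (blue) fill the area below 50% down to 2.76% without a gap, beside 183 peaks with higher cover (red) and 152 with none (grey).

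The thresholds cut through a continuous range. The 3 narrowest regions lay at 7q36.1 (8018 bp), 6p22.3 (8049 bp) and 16q22.1 (8068 bp), and the 3 widest peaks just too narrow lay at 12q13.12 (7991 bp), 12q13.3 (7970 bp) and 17q25.1 (7959 bp). The 3 with the highest cover lay at 17p11.2 (49.95%), 21q22.3 (49.8%) and 5q31.3 (49.2%), against 50.04% at Xq26.2, 50.2% at 6p24.3 and 50.3% at 5q31.1 just outside.

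The number of regions depended on how the authors' caller split the acetylated bases. The next H3K27ac peak began within 1000 bp of an edge for 194 of the 260 (74.6%, 95% Wilson interval 69.0 to 79.5), against 57.9% of all H3K27ac peaks. The other wide peaks were close to the regions in this, with 71.6% (64.7 to 77.6) of those with more H3K4me3 and 77.6% (70.4 to 83.5) of those with none. The median gap to the nearer neighbour was 272 bp. Joining H3K27ac peaks within 1000 bp before applying the same rule gave 807 regions. A peak edge in these regions was therefore often a short gap in a longer acetylated stretch. A median of 4 further H3K27ac peaks, and up to 17, lay within 10000 bp of the edges. This count was made for the 260 regions only, so whether it is high or low cannot be said.

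The strength of H3K4me3 within the regions spanned the whole H3K4me3 list. The signal value of a peak is the authors' own and is used only to rank peaks within 1 list. By the strongest H3K4me3 peak in each region, 81 regions fell in the strongest quartile of that list (signal value 41.9 or more), 62 in the second, 57 in the third and 60 in the weakest (below 3.45). Of all H3K27ac peaks with H3K4me3, 36% had a peak of the strongest quartile and 13.8% had none above the weakest. For the 260 these shares were 31.2% (25.8 to 37.0) and 23.1% (18.4 to 28.6). The cover limit of the rule bears on this, because weak H3K4me3 peaks were narrower. Median widths in the whole list were 3040 bp in the strongest quartile and 509 bp in the weakest. Of the wide peaks with too much H3K4me3 for the rule, 79.2% fell in the strongest quartile and 0 of 183 in the weakest. The shares of the 260 therefore cannot be read apart from the rule. In 117 regions (45.0%) the strongest H3K4me3 peak lay below the median of its list. Among the 60 regions of the weakest quartile, 44 (73.3%, 61.0 to 82.9) had no H3K4me3 peak of the strongest quartile within 20 kb, with a median distance of 58.8 kb. The share was close in the second quartile (46 of 62, 74.2%, 62.1 to 83.4) and the third (39 of 57, 68.4%, 55.5 to 79.0). No such share is at hand for other H3K27ac peaks. Strong H3K4me3, the usual sign of an active promoter, was thus inside some of the regions only. Most regions outside the strongest quartile had none within 20 kb. The set is therefore named here by its rule, as wide acetylated regions with partial H3K4me3.

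H3K4me3 was a single peak in 150 of the 260 regions. The other 110 (42.3%, 36.5 to 48.4) held 2 or more, against 3.42% of all H3K27ac peaks with H3K4me3, which are much narrower. Among the wide peaks with 50% cover or more the share was 51.4% (44.2 to 58.5). The 260 strongest peaks had a median width of 2549.5 bp and a median signal value of 17.5. The 154 further peaks in the same regions were small, with medians of 604 bp and 2.11, and 124 of them belonged to the weakest quartile of the list. By definition each was weaker than the strongest peak of its region, so their lower signal values were fixed in advance. Only 3 of these 154 were in the strongest quartile. One of them, of 3423 bp and with a signal value of 56.0, lay inside a region of 12589 bp at 19p13.3, where the strongest peak, at 71.3, stood across the left edge.

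The placement of H3K4me3 within the regions differed with its strength. For each region the acetylated bases outside H3K4me3 were divided into those left and right of the strongest H3K4me3 peak, and the share on the longer side was taken. It was 50% for an even spread and 100% for a spread to 1 side. Because the larger side is always taken, any uneven placement gives more than 50%. No value for random placement was computed, so the comparison below is between quartiles. The median over all 260 was 82.3% (interquartile range 67.4 to 97.3). It was 98.5% in the 81 regions of the strongest quartile, 86.4% in the second, 74.7% in the third and 72.2% in the weakest. In the strongest quartile 60 of 81 regions (74.1%, 63.6 to 82.4) had at least 90% of these bases on 1 side, and in the weakest 2 of 60 did (3.33%, 0.919 to 11.4). Both sides reached 1000 bp in 17 of 81 regions of the strongest quartile and in 54 of 60 of the weakest. Over the 260 regions Spearman's rho between H3K4me3 signal value and this share was 0.55, and 0.54 in the 150 regions with a single H3K4me3 peak. These are descriptions over regions of the same libraries.

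**Figure D2:**
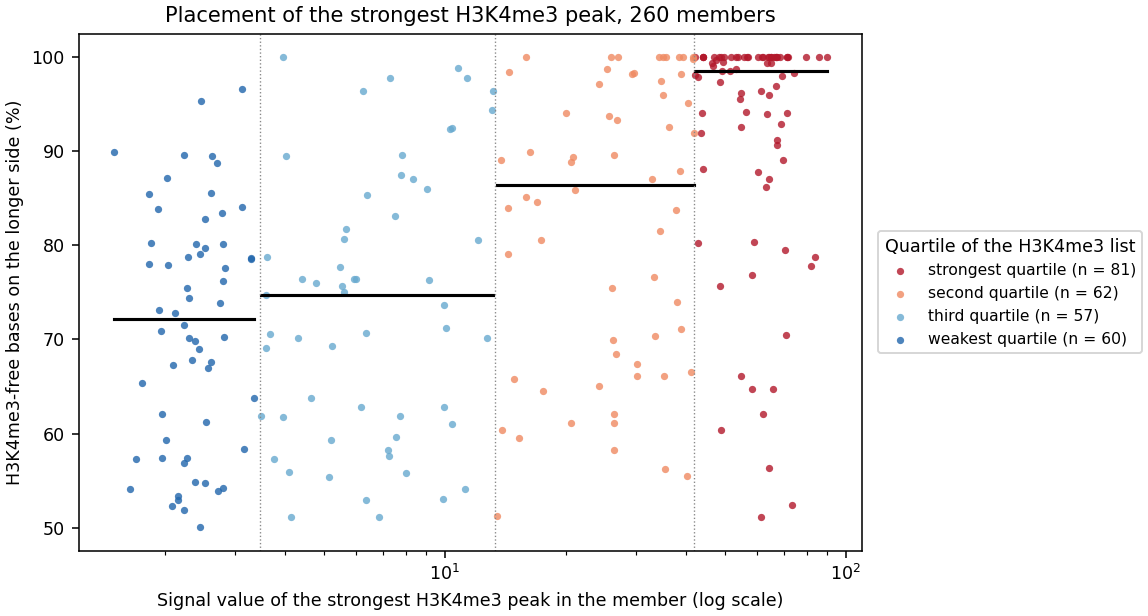
Each point is 1 of the 260 regions, with the authors' signal value of its strongest H3K4me3 peak on a log axis against the percent of its H3K4me3-free bases on the longer side of that peak. Dotted lines mark the quartiles of the H3K4me3 list and black bars the median of each group, which go from 72.2% in the weakest to 98.5% in the strongest.

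Part of the one-sidedness came with H3K4me3 peaks that crossed the edge of the acetylated peak. The strongest H3K4me3 peak reached past an edge in 41 regions, and the same number had all H3K4me3-free bases on 1 side. Of these, 32 belonged to the strongest quartile and none to the weakest. Without such regions the median in the strongest quartile was 92.6% (n = 49) and that of the weakest stayed at 72.2%. The split of the acetylated bases into peaks was varied as well. After joining H3K27ac peaks within 1000 bp the median was 95.4% in the strongest quartile, 68.9% in the weakest and 86.2% over all 807 regions. Gaps past the edges were also counted, without joining. In 30 of the 60 one-sided regions of the strongest quartile (50%, 37.7 to 62.3), the next H3K27ac peak began within 1000 bp past the short side. Past the long side it did in 40 (66.7%, 54.1 to 77.3). The share thus describes the called peak, and acetylation often resumed past its short side. One-sided spread was not special to the regions with low cover. In the 145 wide peaks with 50% cover or more and H3K4me3 of the strongest quartile, the median share on the longer side was 95.4%. The longer side lay towards higher coordinates in 134 of the 260 regions (51.5%, 45.5 to 57.6). Whether it followed the direction of transcription was not analysed here, since the gene table at hand is on another build.

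The widest regions show both layouts. The widest of all lay at chr7:130577097-130612127 in band 7q32.3, with an H3K27ac signal value of 21.6. It held a single H3K4me3 peak of 13144 bp, the widest among the 260 strongest, with 14465 acetylated bases to its left and 7422 to its right. Acetylation thus extended to both sides of a broad H3K4me3 block. The second, at chr20:30281090-30311869 in 20q11.21, was 30780 bp wide and had its H3K4me3 peak of 8343 bp at the right end, leaving 22508 acetylated bases to the left and 0 to the right. This was the longest arm among the 260. At chr16:87870495-87897478 in 16q24.2, 3 H3K4me3 peaks stood together at the right end, and 17064 H3K4me3-free bases lay to the left of the strongest. The next H3K27ac peak lay 195 bp past that end. The H3K27ac summit of the region was 5445 bp away from H3K4me3.

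H3K4me3 cover was low in some of the widest. At chr22:36744915-36769786 in 22q12.3 (24872 bp), H3K4me3 covered 9.07% of the bases, its strongest peak had a signal value of 4.02, and 20248 H3K4me3-free bases lay on 1 side. At chr18:56064167-56086049 in 18q21.31 (21883 bp) the cover was 5.30% in 2 peaks, the stronger with a signal value of 2.04, while H3K4me1 covered 97.4% of the region. The H3K27ac summit lay 4700 bp from the nearer of them. At chr2:20775933-20800660 in 2p24.1 (24728 bp) an H3K4me3 peak of 2885 bp, with a signal value of 14.9 in the second quartile, had 14361 acetylated bases on its left and 7482 on its right, and the H3K27ac summit, with a signal value of 55.4, was 5565 bp from it.

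Most of the others among the 12 widest had their strongest H3K4me3 peak near 1 end of the called H3K27ac peak. At chr20:368189-391489 in 20p13 (23301 bp) the strongest H3K4me3 peak, with a signal value of 65.0, left 18072 bases to its left and 113 to its right. At chr7:45911896-45932660 in 7p12.3 (20765 bp) the corresponding values were 64.3, 14541 and 615, with the next H3K27ac peak 280 bp past the right end. At chr6:11213678-11235207 in 6p24.2 (21530 bp) these values were 40.4 (in the second quartile), 13274 and 683, although the H3K27ac signal value, 16.0, was the lowest of the 12. At chr17:57913309-57936086 in 17q23.1 (22778 bp) the region held 4 H3K4me3 peaks, of which the strongest had a signal value of 43.5. At chr4:39511816-39531981 in 4p14 (20166 bp) the signal value and the bases to the left and right were 61.5, 10237 and 386. The last of the 12, at chr6:168066682-168086779 in 6q27 (20098 bp), differed. Its H3K4me3 peak of 1873 bp, in the second quartile, stood further in, with 11762 bases on its left and 6463 on its right. In all, 7 of the 12 widest had at least 90% of the H3K4me3-free bases on the longer side, and 6 had the H3K27ac summit outside H3K4me3.

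The regions with the least H3K4me3 were acetylated stretches with only a trace of it. At chr12:101991724-102004274 in 12q23.2 (12551 bp) H3K4me3 covered 2.76%, with a signal value of 1.82, and the H3K27ac summit was farther from H3K4me3 than in any other region. Cover was 3.00% at 8q22.1, 3.19% at chr1:235089460-235102167 in 1q42.3, 3.22% at chr2:47256263-47272632 in 2p21 and 3.37% at chr20:17834751-17847468 in 20p12.1. The H3K27ac signal values of these 5, from 34.6 to 56.2, lay at or above the median of the 260, while their H3K4me3 lay in the weakest quartile throughout.

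**Figure D3:**
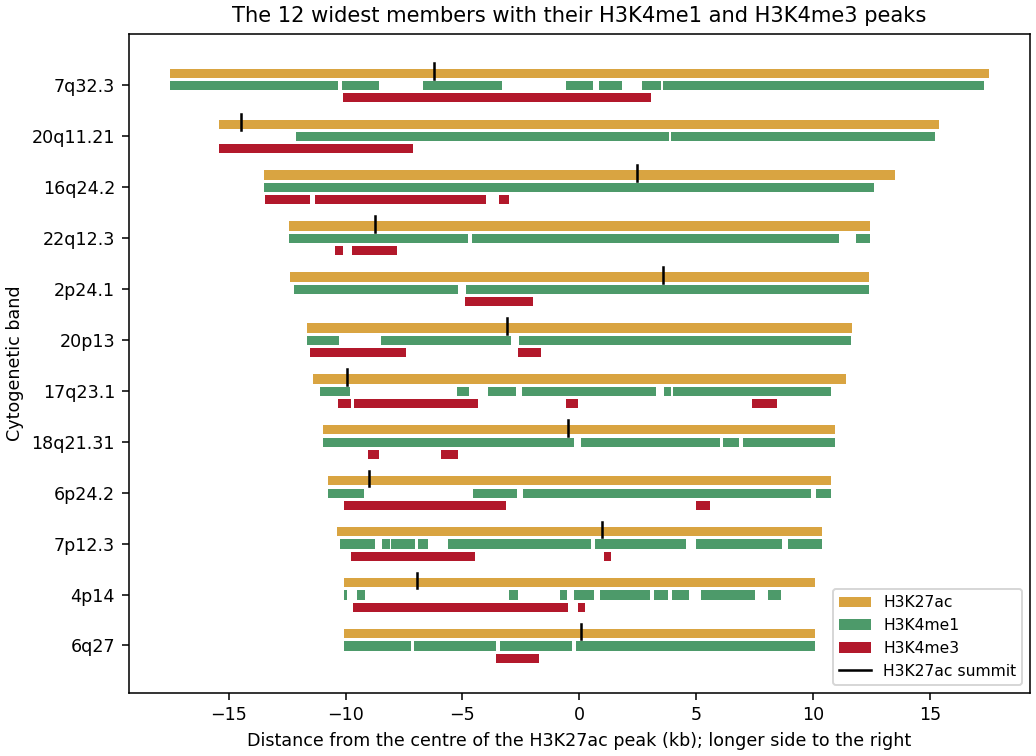
The 12 widest regions drawn to scale, centred and turned so that the longer H3K4me3-free side is on the right; each row shows the H3K27ac peak (yellow), the H3K4me1 (green) and H3K4me3 (red) peaks inside it, and the H3K27ac summit (black tick). H3K4me3 stands at the left end of the rows for 20q11.21, 16q24.2 and 20p13 and further in for 7q32.3 and 2p24.1, and H3K4me1 covers from 66.0% (4p14) to 98.7% (20q11.21) of the bases outside H3K4me3.

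H3K4me1 was not used in the choice of the regions, and it filled nearly all of the acetylated bases that H3K4me3 left free. All 260 regions shared bases with H3K4me1, compared with 87.4% of all H3K27ac peaks, which are mostly narrower and have less room to do so. H3K4me1 covered a median of 89.6% of each region (interquartile range 80.4 to 95.8). Outside H3K4me3 the median was 96.2% (89.8 to 99.0), and under H3K4me3 it was 80.5% (57.1 to 100). Taken over all bases, 93.5% of the 2.26 Mb outside H3K4me3 and 67.5% of the 0.805 Mb under it lay in H3K4me1 peaks. The cover outside H3K4me3 was close in the other wide peaks, with medians of 95.1% in those with more H3K4me3 and 94.3% in those with none. Over all H3K27ac peaks with bases outside H3K4me3 that median was 100% (interquartile range 78.0 to 100). H3K4me1 covered 90% or more of the peak in 48.1% of the regions and in 51.1% of all H3K27ac peaks. High H3K4me1 cover was therefore not particular to the regions. Under H3K4me3 the median was 48.7% in the wide peaks with 50% cover or more, of which 79.2% had H3K4me3 of the strongest quartile. Within that quartile the medians were closer, at 56.0% in the 81 regions and 48.8% in the 145 wide peaks with more H3K4me3, and their interquartile ranges (43.3 to 68.3 and 31.1 to 63.5) overlapped.

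**Figure D4:**
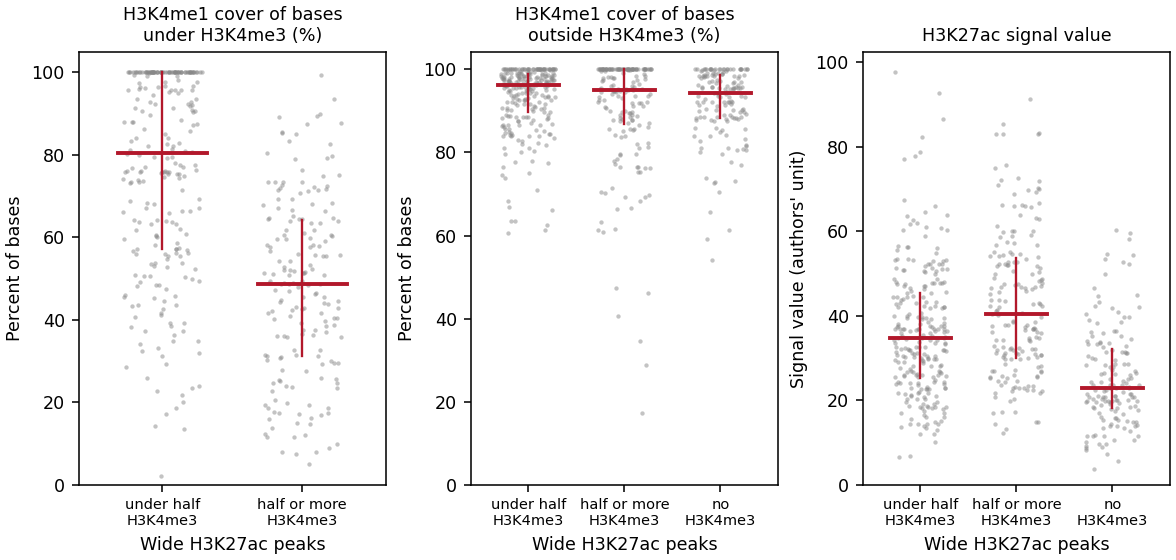
Each grey point is an H3K27ac peak of 8 kb or wider, grouped by H3K4me3 cover, with medians (thick red bars) and interquartile ranges (thin red bars). The panels show the percent of bases under H3K4me1 inside H3K4me3 (medians 80.5% and 48.7%, over groups that differ in H3K4me3 strength), outside H3K4me3 (96.2%, 95.1% and 94.3%) and the authors' H3K27ac signal value (34.6, 40.4 and 22.9).

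H3K4me1 at the centre of the H3K4me3 peak followed H3K4me3 strength. An H3K4me1 peak lay over the summit of the strongest H3K4me3 peak in 7 of 81 regions of the strongest quartile (8.64%, 4.25 to 16.8), 28 of 62 in the second (45.2%, 33.4 to 57.5), 54 of 57 in the third (94.7%, 85.6 to 98.2) and 58 of 60 in the weakest (96.7%, 88.6 to 99.1). In the whole H3K4me3 list the shares by quartile were 2.60%, 16.96%, 61.5% and 81.3%. Each interval for the 260 regions lay above the corresponding share in the list. H3K4me3 peaks of these regions were also wider than those of their quartile, for example with medians of 3937 against 3040 bp in the strongest.

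On the longer side, from the H3K4me3 edge outwards, the quartiles were close, with overlapping intervals. At that edge H3K4me1 was present in 77 of 81 regions of the strongest quartile (95.1%, 88.0 to 98.1) and in 56 of 60 of the weakest (93.3%, 84.1 to 97.4). At 1000 bp past it the numbers were again 77 of 81 and 56 of 60, and at 4000 bp, where the region still continued, 74 of 77 and 55 of 59. In the strongest quartile H3K4me1 was already frequent inside the H3K4me3 peak, in 46 of 77 regions 1000 bp before the edge (59.7%, 48.6 to 70.0) and in 71 of 80 regions 500 bp before it (88.8%, 80.0 to 94.0). On the shorter side the quartiles were not all close. At the edge there, H3K4me1 was present in 44 of 56 regions of the third quartile (78.6%, 66.2 to 87.3) and in 58 of 60 of the weakest (96.7%, 88.6 to 99.1). H3K4me1 cover varied between single regions. The least H3K4me1 was found in the 4p14 region, with 41.5% of its bases covered, in 10 short peaks, next to an H3K4me3 peak of 9226 bp. Cover was 48.9% at 6q25.3 and at 15q26.1, 51.4% at 7p14.2 and 51.5% at 10p12.33. In all 5 the bases under H3K4me3 were covered less than the rest. At 4p14 H3K4me1 covered 14.2% under H3K4me3 and 66.0% outside it, and outside it the cover was 63.5% at 6q25.3, 68.3% at 15q26.1, 77.7% at 7p14.2 and 61.4% at 10p12.33. At the other end, 10 regions were covered completely, among them chr2:43198447-43209164 in 2p21 and chr1:94078216-94088479 in 1p22.1, with strongest H3K4me3 signal values of 4.65 and 2.72. By H3K4me3, 5 of the 10 belonged to the weakest quartile, 3 to the third, and 1 each to the second and the strongest.

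**Figure D5:**
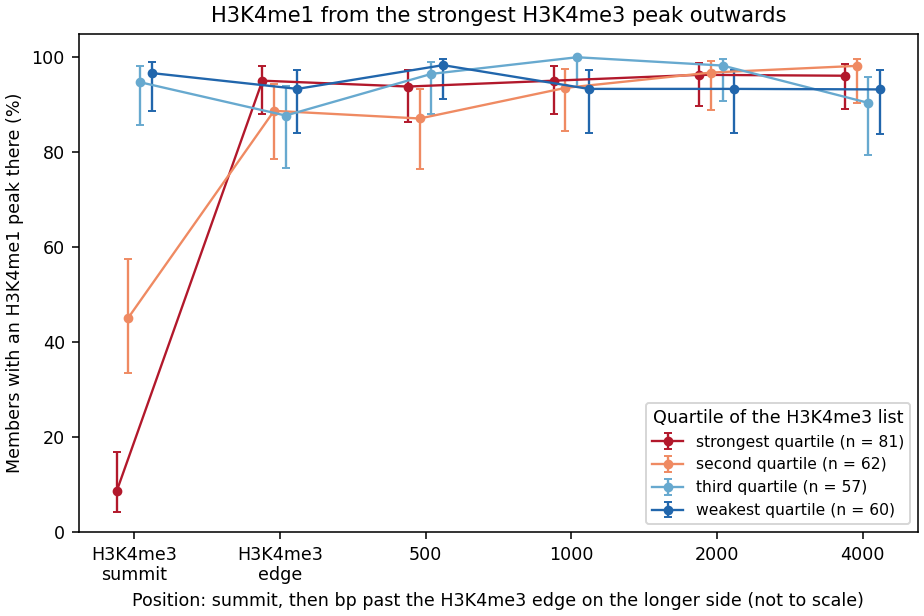
The percent of regions with an H3K4me1 peak (95% Wilson intervals as bars) at the summit of the strongest H3K4me3 peak, at its edge, and 500 to 4000 bp past the edge on the longer side, by quartile of the H3K4me3 list. At the summit the share goes from 8.64% in the strongest to 96.7% in the weakest quartile, while at the edge and beyond the lines run close together.

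The point of highest acetylation usually stayed with H3K4me3. The H3K27ac summit lay inside an H3K4me3 peak in 195 of the 260 regions and outside in 65 (25%, 20.1 to 30.6). Among all H3K27ac peaks with H3K4me3 it lay outside in 4.39%, and among the wide peaks with 50% cover or more in 2 of 183 (1.09%, 0.300 to 3.90). The rule asks for low cover, and only 26.2% of the bases of the regions lay under H3K4me3, so a summit had more room outside it than in those groups. The 65 outlying summits were a median of 1929 bp from H3K4me3, up to 8014 bp at 12q23.2, and 41 were more than 1000 bp away. Of these 65, 63 lay inside an H3K4me1 peak, compared with 122 of the 195 summits inside H3K4me3. A summit outside H3K4me3 was found in 15 of 81 regions of the strongest quartile (18.5%, 11.6 to 28.3) and in 21 of 60 of the weakest (35.0%, 24.2 to 47.6), with overlapping intervals. Counting all 260, the summit lay in an H3K4me1 peak in 185 (71.2%, 65.4 to 76.3), against 38.1% of all H3K27ac peaks with H3K4me3. It did in 54 of 183 wide peaks with 50% cover or more (29.5%, 23.4 to 36.5) and in 151 of 152 without H3K4me3 (99.3%, 96.4 to 99.9). These groups differ in H3K4me3 strength. Within the strongest quartile the shares were closer, at 44.4% (34.1 to 55.3) of the 81 regions and 26.2% (19.7 to 33.9) of the 145 wide peaks with more H3K4me3.

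The H3K27ac signal values of the regions ranked high in their list. The median H3K27ac signal value was 34.6 (interquartile range 25.3 to 45.5), at the 95.7th percentile of the H3K27ac list, and 206 of the 260 exceeded the 90th percentile of 23.1. It was 40.4 in the wide peaks with more H3K4me3 and 22.9 in those with none, with wide overlap between the groups. Within the 260 it changed little with H3K4me3 strength, from a median of 36.9 in the strongest quartile to 30.7 in the weakest, with a Spearman's rho of 0.18 over regions. The highest values were 97.7 at chr11:1967719-1977673 and 82.4 at chr11:1999077-2014730, both in 11p15.5, 92.7 at chr19:950401-964657 and 86.4 at chr19:1095557-1108145, both in 19p13.3, and 78.7 at chr5:176513031-176523860 in 5q35.2. The 5 differed in H3K4me3. The strongest H3K4me3 peak had a signal value of 66.9 in the first and 5.60 in the region from 950401 on chromosome 19, where H3K4me3 covered 11.9% and H3K4me1 97.3% of the bases. The lowest H3K27ac signal value, 6.50, was also in 11p15.5, at chr11:2708155-2717868 (9714 bp). That region had the strongest H3K4me3 peak of the whole set, with a signal value of 89.7 and a width of 6539 bp, reaching past its right edge. H3K4me1 covered it completely, and its H3K27ac summit was 3102 bp from H3K4me3.

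The regions were found on each of the 23 chromosomes, as 0.127% to 0.646% of a chromosome's H3K27ac peaks. The highest share was on chromosome 17 (24 of 3713, 0.435 to 0.960) and the lowest on chromosome 21 (1 of 790, 0.0223 to 0.713), whose intervals overlap. The interval of chromosome 17 lay above those of chromosomes 4 (0.0658 to 0.434), 8 (0.0792 to 0.433) and 15 (0.0500 to 0.431). Among the H3K27ac peaks of 8000 bp or more it did not stand out. On chromosome 17, 24 of 56 of them met the rule (42.9%, 30.8 to 55.9), against 260 of 595 on all chromosomes. That interval overlapped those of chromosomes 4 (8.07 to 41.6), 8 (11.2 to 46.9) and 15 (8.89 to 53.2). These are intervals for 23 chromosomes, and no test was made over them. The regions lay in 181 cytogenetic bands, of which 11 held 3 or more, led by 19p13.3 with 8, 11p15.5 with 7 and 17q25.3 with 5. The H3K27ac peaks of each band were not counted beside them, so these counts do not show a concentration of the regions. Bands without Giemsa stain, the pale bands that are rich in genes, held the centres of 173 regions (66.5%, 60.6 to 72.0). For all H3K27ac peaks the share was 60.7%, which lies inside that interval. Another region of the set lay within 100 kb of 43 of the 260, and 5 pairs were separated by less than 5000 bp. The closest pair was at 6q12, where regions of 14175 and 8410 bp were 92 bp apart, followed by 20p13 (10619 and 23301 bp, 276 bp apart) and 3q25.1 (14431 and 13174 bp, 296 bp apart). In the 3q25.1 pair the strongest H3K4me3 peaks had signal values of 44.1 and 13.9, and in the 20p13 pair 73.7 and 65.0. Each of these pairs would count as 1 longer region if gaps that short were bridged.

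The regions were close to all H3K27ac peaks with H3K4me3 in how often H3K4me1 lay at their edges. Both edges lay inside an H3K4me1 peak in 100 of the 260 regions (38.5%, 32.8 to 44.5), compared with 51.7% of all H3K27ac peaks. One edge did in 119 (45.8%, against 30.2%), and neither did in 41 (15.8%, against 18.2%). Among all H3K27ac peaks with H3K4me3, which the rule requires, the shares for both edges, 1 edge and neither were 40.7%, 41.1% and 18.3%. The lower share with both edges was therefore not particular to the regions. Both edges did in 51.9% of the wide peaks with 50% cover or more and in 37.5% of those without H3K4me3. A further H3K4me3 peak outside the region but within 10000 bp was present for 115 of the 260 (44.2%, 38.3 to 50.3). One from the stronger 50% of the list was found that close for 18 of 81 regions of the strongest quartile (22.2%, 14.5 to 32.4) and for 19 of 60 of the weakest (31.7%, 21.3 to 44.2), with overlapping intervals. Such shares are not at hand for other H3K27ac peaks, so whether these are high or low cannot be said.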

How the data were processed

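ChIP-seq libraries of HepG2 cells, in 4 groups of 3, were represented by 1 deposited peak list per mark, for 3 marks. MACS2 and hg19 are named in the submitters' processing notes, without roles or order. The threshold, the version and the use of the control were not given in the sources used here, nor was the depth of the libraries. The authors deposited for each peak a score, a signal value of unstated scale (treated as a score), and −log10 p-values and q-values. Of these, only the signal value entered the results, and the −log10 q-value entered an alternative. No peak of a list overlapped another, and none ended past its hg19 chromosome.

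H3K4me3 and H3K4me1 cover, arms to either side of the strongest H3K4me3 peak (by signal value), summit positions and gaps were computed from the positions with Python 3.11.15, numpy 2.4.6 and pandas 2.3.3. The functions were tested on simulated lists. Quartiles are of the whole H3K4me3 list. Bands are from an hg19 band table. Replicates were pooled by the authors, so no test was made. The planned gene and promoter results were not run, since the gene and promoter tables at hand are of GRCh38, and no sequence is printed for the same reason. The regions, gene lists and quartiles were chosen with earlier results of these data known. Named are the 12 widest regions and the 5 each with the highest signal value, least H3K4me3 cover, least H3K4me1 cover and longest arm. Also named are the 3 nearest to each threshold on either side and the closest pairs. Of the 10 regions that H3K4me1 covered completely, only some are named. The pairs, the lowest signal value and the 19p13.3 pair of strong H3K4me3 peaks were picked after their values were seen. Alternatives changed the width, the cover, the H3K4me3 peaks used, the overlap, joining of peaks, the chromosomes and how the arms were counted.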

Additional observations from a re-analysis of the deposited data

How the results depend on the processing

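Each of 9 results was recomputed under the alternatives, which gave 89 values. In 72 cases the value stayed inside the 95% interval of the reported value (for counts, within 1.5 times), and in 17 it moved. None reversed, as none is a signed difference. Requiring 200 bp of overlap changed nothing, because no region shared less with H3K4me3.

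The number of regions was 528 at 6000 bp or wider, 161 at 10000 bp or wider, 120 with cover under 25% and 807 after joining H3K27ac peaks within 1000 bp. The first 3 follow from the rule itself. Median H3K4me1 cover was 94.98% with cover under 25%, 82.3% with only the stronger 50% of H3K4me3 peaks and 82.0% after joining H3K27ac peaks, when the cover outside H3K4me3 was 90.9%. The share of summits outside H3K4me3 was 35% with cover under 25% and 18.5% after joining. The median share on the longer side was 74.9% with cover under 25%, 94.0% with the stronger 50% of H3K4me3 peaks and 77.9% without H3K4me3 peaks that cross an edge. For the strongest quartile it was 92.6% without those peaks and 95.4% after joining H3K27ac peaks. The median H3K27ac signal value was 30.2 at 6000 bp or wider and 36.9 with the stronger 50% of H3K4me3 peaks. Under each alternative that gave both, the strongest quartile had the higher share on the longer side. The weakest quartile had none left when only the stronger 50% was used. The alternatives on crossing peaks, single H3K4me3 peaks and the widest H3K4me3 peak were chosen after seeing the data. The share of regions with a gene start and the direction relative to genes were planned and not run, for want of gene positions of the same build.

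No paired analysis was possible because each mark has 1 pooled list and no result comes from a test. Leaving out a replicate was not possible for the same reason. Depth, which is unknown, limits how weak a peak the lists hold.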
